A study of Mus musculus with 4 samples.

Results

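The cells described here were MHC class II-high, C1q-low cells of YUMMER1.7 mouse melanomas, 175 of the 6625 single-cell barcodes kept from 2 libraries. The members were chosen by their own measured expression. A barcode was kept when it held 200 to 5000 genes, at most 5% mitochondrial UMIs (unique molecular identifiers, 1 for each captured RNA molecule), and at least 3 times as many counts of its leading hashtag as of the next one. A kept barcode was a member when Cd74 gave at least 150 UMIs per 10000 and the 3 C1q genes together gave at most 2 UMIs. Members also had no UMI of Ccr7, Xcr1, Clec9a, Siglech, Cd79a or the Cd3 genes, at most 1 of Ly6c2, and fewer than 3 of Thbs1 and Vegfa together. The rule left 82 of 2053 kept barcodes (3.99%) in the long treatment cohort and 93 of 4572 (2.03%) in the short treatment cohort.

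MHC class II molecules are pairs of an alpha and a beta chain that show peptides from taken-up proteins to CD4 T cells. Cd74, the invariant chain, holds the peptide groove while the pair moves to the endosome and is also the cell surface receptor of the cytokine MIF; H2-DM then exchanges the last piece of Cd74 for peptide, H2-O restrains H2-DM, and Ciita switches the whole gene group on. Conventional dendritic cells carry MHC class II at a high level at rest, whereas monocytes and macrophages in a tumor can acquire it.

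The tumors grew from YUMMER1.7 cells, a melanoma line, under the skin of wild-type male C57BL/6J mice 7 to 8 weeks old. From day 7 the mice received isotype IgG1, anti-PD-1 (clone RMP1-14), anti-MIF (clone IIID.9) or the anti-PD-1/anti-MIF combination into the peritoneum, as 4 doses over 2 weeks with harvest on day 21 (long cohort) or as 2 doses over 1 week with harvest on day 14 (short cohort). Cells sorted on CD45 were recombined as 80% positive and 20% negative cells, so that shares refer to an immune-enriched mix and not to the tumor. Each cohort was 1 pooled 5′ library in which a hashtag marked the treatment arm. The mice within an arm were not told apart, and cohort, treatment length and library cannot be told apart.

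The long library held 23702910 gene UMIs in 2516 barcodes and the short library 31799441 in 4987. The arm of every member rested on a hashtag of 15 bases. The tags are shown because each value by treatment depends on reading them apart; capitals mark bases that no other tag has at that position, and any tag differed from its nearest neighbor at 8 or more positions.
Isotype: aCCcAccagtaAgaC
anti-PD1: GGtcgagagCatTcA
anti-MIF: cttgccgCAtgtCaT
anti-PD1-MIF: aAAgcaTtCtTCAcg
anti-PD1-MIF-DDT: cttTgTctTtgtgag

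The fifth tag, named for a further agent (DDT), is not listed among the sample labels. Its 30 members (6 long, 24 short) were left out of every comparison between arms, and its values are given as those of the fifth hashtag. In members of the 4 labelled long arms the median count of the leading tag was 788 to 2659 and of the next tag 95 to 225. In the short arms these medians were 314.5 to 934.5 and 32 to 40, so both counts were lower there, with overlap for the leading tag only. When the leading tag had to be 10 times the next, the arms lost members unevenly. In the order isotype, anti-PD-1, anti-MIF and combination, 5, 9, 45 and 17 long members became 0, 8, 5 and 1. The 18, 30, 12 and 9 short members became 5, 24, 10 and 7. Of 20 barcodes that occurred in both libraries, 15 were kept and 0 were members.

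Sequence upstream of 3 class II genes is shown because these genes carry the description below. The windows hold the 150 bases before the start of H2-Aa (chr17:34287824-34287973, minus strand), H2-Eb1 (chr17:34305717-34305866, plus strand) and H2-Oa (chr17:34092229-34092378, plus strand), from RefSeq on build GRCm38.p6. Capitals mark CTGATTGG, letters of the Y box, an element known from class II promoters.
H2-Aa: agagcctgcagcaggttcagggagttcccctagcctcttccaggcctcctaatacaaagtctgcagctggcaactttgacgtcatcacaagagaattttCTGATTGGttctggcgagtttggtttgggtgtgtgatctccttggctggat
H2-Eb1: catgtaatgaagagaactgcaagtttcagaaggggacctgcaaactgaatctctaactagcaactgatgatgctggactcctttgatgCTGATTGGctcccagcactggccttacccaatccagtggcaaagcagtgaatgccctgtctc
H2-Oa: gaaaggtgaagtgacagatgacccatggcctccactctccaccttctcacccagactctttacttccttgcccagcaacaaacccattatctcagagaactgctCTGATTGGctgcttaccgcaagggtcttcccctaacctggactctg

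The first base of these letters lay 51, 62 and 46 bases before the start of H2-Aa, H2-Eb1 and H2-Oa. Searched on both strands, the letters occurred in 4 of the 10 class II genes that the promoter table holds, H2-Eb2 being the fourth, and in 1166 of all 27025 windows of 300 bases (4.31%). A match describes the letters only.

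Cd74, the gene that chose the cells, ranged from 153.8 to 603.1 UMIs per 10000 in long members (median 252.1) and from 150.1 to 378.8 in short members (median 210.2). Just outside the rule the nearest kept barcodes that met every other condition had 142.8 (long) and 146.4 (short). The median of the other kept barcodes was 39.5 in the long arms and 11.5 in the short cohort. Barcodes that missed only the C1q condition numbered 126 long and 41 short, those that missed only the Ly6c2 condition 61 and 98, those that missed only the Xcr1 and Clec9a condition 25 and 21, and those that missed only the Ccr7 condition 21 and 11. Cells thus lay on both sides of each of these limits.

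Beside Cd74, the classical class II chains were high in every arm. All values by arm are CPM, UMIs of a gene per 1000000 of the members' summed UMIs, in the order isotype, anti-PD-1, anti-MIF and combination, and differences between members and other cells are described without a test because the rule read these same cells. H2-Aa, the alpha chain of I-A, was at 13297, 8359, 10520.5 and 9412 CPM in the long arms and at 10742, 9993, 9227 and 9019 in the short arms. H2-Ab1, its beta chain, was at 8669, 6538, 8338 and 7463 CPM in the long arms and 9713, 7074, 7507 and 8713 in the short arms. H2-Eb1, a further class II beta chain, was at 12223, 8187, 9196 and 9351 CPM in the long arms and 8853, 7362, 7753 and 7359.7 in the short arms. These are RNA levels, and whether its protein was paired and shown on the cells was not measured. No arm stood far from the others for these chains, and the lowest member value lay above the highest value of the other kept barcodes in any arm (5083 CPM for H2-Aa, 3704 for H2-Ab1 and 4244 for H2-Eb1).

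The accessory genes of peptide loading were uneven. H2-DMb2, a beta chain of H2-DM, was at 281, 173, 390.1 and 639 CPM in the long arms and 268, 38.8, 233 and 162 in the short arms. H2-Oa, the alpha chain of H2-O, was at 358, 230.1, 245 and 376 CPM in the long arms and 162, 49.9, 147 and 108 in the short arms. Every long H2-Oa value exceeded every short one, while the H2-DMb2 ranges overlapped. Levels by arm are means over the groups of members described below, which each arm held in its own proportions. Ciita was at 230.1, 249, 243 and 354 CPM in the long arms and 247, 249, 295 and 415 in the short arms, with no cohort apart from the other. Pooled over the 8 arm samples, members against other kept barcodes had 208 against 23.2 CPM of H2-Oa, 312 against 42.6 of H2-DMb2, 83.9 against 13.1 of H2-Ob and 269 against 59.6 of Ciita.

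**Figure D1:**
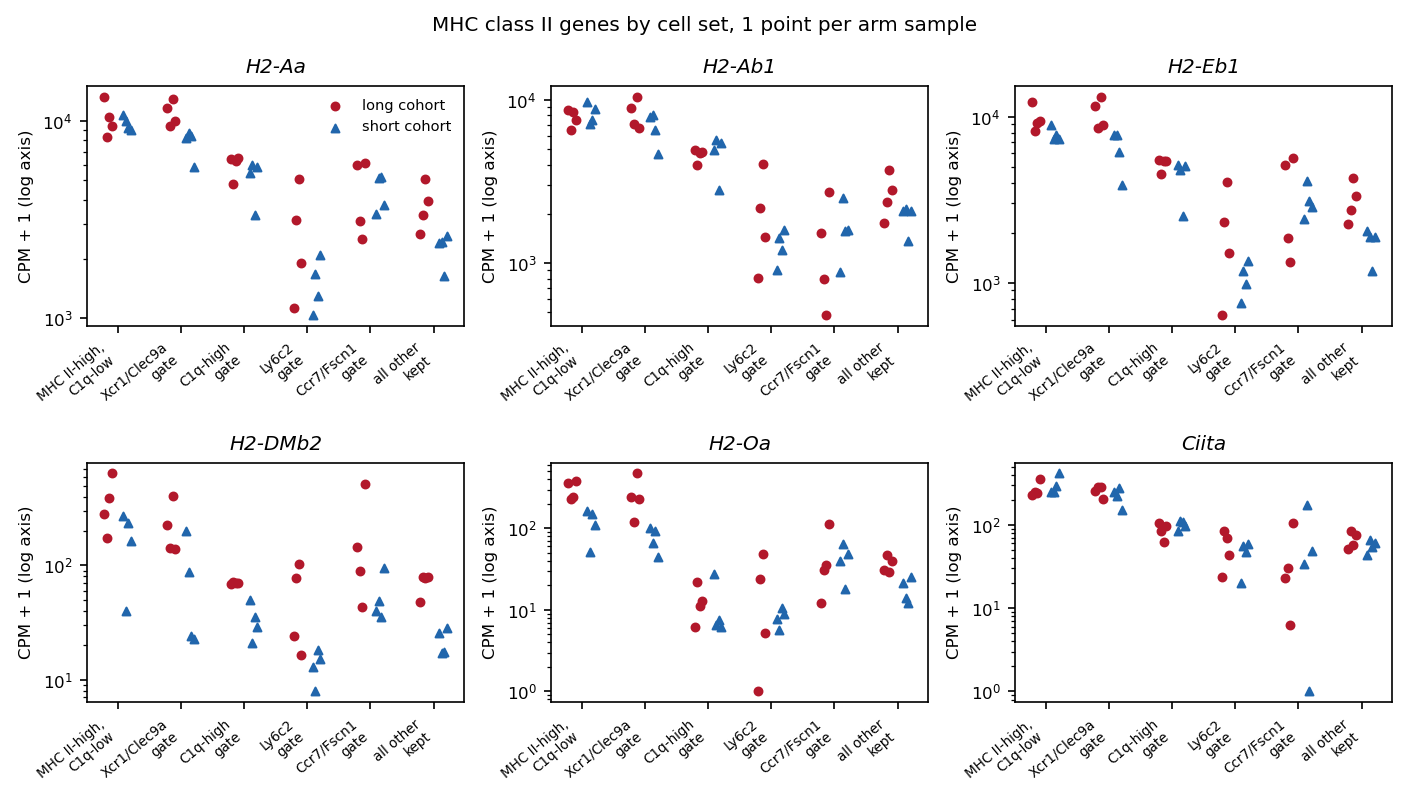
Level of 6 class II genes in CPM + 1 on log axes, 1 point per labelled arm sample, in 5 cell sets and in all other kept barcodes. Members lie between 8359 and 13297 CPM for H2-Aa, and their H2-Oa, from 49.9 to 376 CPM, lies with that of the Xcr1/Clec9a gate and above that of the C1q-high and Ly6c2 gates.

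Cd74 left out, since the rule read it, 10 of the 11 measured genes of the class II structural and loading list were higher in members than in the other kept barcodes of the same arm in all 8 arm samples. The median log2 ratio of the 11 was 1.71, beside -0.01 over the 4299 genes measured. Of all measured genes, 3.02% were higher and 6.12% lower in all 8 samples, shares from which nothing is read because the rule used this contrast. Without Cd74 the list summed to 30874 CPM in long and 27544 in short members against 12243 and 6951 in other barcodes, sums that, like all cohort sums here, include the fifth hashtag. Of the 9 genes listed for the breakdown of antigens and Cd74 in the endosome, 2 were higher and 3 lower in all 8 samples. The most abundant of them, the protease inhibitor Cst3, was at 10189 CPM in members and 3554 in other kept barcodes. Ifi30, a reductase that opens disulfide bonds of antigens, was the other higher gene, at 1435 against 901 CPM. The cathepsins Ctsb (389 against 755), Ctsl (83.0 against 237) and Ctsd (75.1 against 222), proteases of the lysosome, were the 3 lower ones, while Ctss, the protease that trims Cd74, was higher in 2 of 8 samples (1752 against 1975 CPM).

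The levels were set beside those of 4 other gated populations of the same libraries. These were drawn from kept barcodes that were not members and had no UMI of the Cd3 genes, Cd79a or Siglech. They were filled in the order Ccr7 and Fscn1, Xcr1 and Clec9a, C1q-high and Ly6c2. A barcode entered only the first gate that it met, so the Ly6c2 population held no C1q-high barcodes. Barcodes with at least 2 UMIs of Xcr1 and Clec9a, receptors of the cross-presenting type of conventional dendritic cell, numbered 88 and had 9563 CPM of H2-Aa, close to the 10164 of members. They had 143 CPM of H2-DMb2 (members 312), 156 of H2-Oa (208) and 239.8 of Ciita (269). Barcodes with at least 10 C1q UMIs, which mark macrophages, numbered 1058 and had 5914 CPM of H2-Aa but 11.3 of H2-Oa. The 2339 barcodes with at least 3 UMIs of the monocyte gene Ly6c2 had 1999.7 CPM of H2-Aa, and the 178 with Ccr7 and Fscn1, genes of mature dendritic cells, had 3443. The Cd74 condition applied to members alone, so the order of these levels is a description.

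The working name of these cells, dendritic-like, was met in part. Over the pooled members the conventional dendritic cell list had 13 measured genes, of which 6 were higher in all 8 arm samples and 0 were lower, with a median log2 ratio of 1.34. Zbtb46, a transcription factor of conventional dendritic cells, was at 128, 134, 40.1 and 67.7 CPM in the long arms and 49.3, 55.4, 49.1 and 90.2 in the short arms, beside 13.4 in the pooled other barcodes. Itgax, which encodes CD11c, was at 205, 211, 296 and 271 CPM in the long arms and 289, 177, 369 and 361 in the short arms, beside 106. Flt3, the receptor for the growth factor of dendritic cells, was at 25.6, 173, 20.1 and 135 CPM in the long arms and 21.1, 188, 98.3 and 18 in the short arms. Flt3 was thus spread widely, with both anti-PD-1-only arms the highest of their cohorts. The Cd209a-led group of members, in which Flt3 was highest, was the most numerous group in the short anti-PD-1 arm, as given below.

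Genes of the second conventional type (cDC2) were not high as a group. Of the 12 measured genes, 2 were higher in all 8 samples and 0 lower, and the median log2 ratio was 0.10. These were Cd209a, a lectin receptor of cDC2 and of monocyte-derived cells, at 179 CPM in members against 11.1 in other kept barcodes, and the inhibitory receptor Cd300a, at 249.99 against 111 CPM. The list summed to 1670.0 CPM in long and 1999 in short members, against 1586 and 1959 in the other barcodes. Xcr1, Clec9a and Ccr7 were at 0 by the rule, and Il12b and Apol7c of the mature dendritic cell list were also at 0.

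Markers of other cell types were mostly low but not absent. In the monocyte list without Ly6c2, which the rule read, 5 of 13 measured genes were lower in all 8 arm samples and 0 were higher, with a median log2 ratio of -0.83. The sum of the whole list was nonetheless 7543, 6480, 7688 and 6049 CPM in the long arms and 8754, 9400, 12556 and 11797 in the short arms, so every short arm exceeded every long one. S100a6 was its most abundant gene, at 3114 CPM. The other kept barcodes showed the same split of the monocyte list. Their sums were 10456, 10735, 8642 and 11815 CPM in the long arms and 15989, 17438, 17333 and 17084 in the short arms. The macrophage list without the C1q genes had 2 of 8 measured genes lower in all 8 samples and 0 higher, and its sum was 1786 CPM in long and 1338 in short members against 4140 and 2388 in other barcodes. Csf1r, the receptor of the macrophage growth factor, was at 281, 115, 292 and 173 CPM in the long arms and 190.3, 205, 418 and 325 in the short arms.

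Lymphoid, tumor and granulocyte lists differed in how far they were from 0. In the T cell list the rule held the Cd3 genes at 0; of the 8 other genes 5 were at 0 in members, and their sum was 5.45 CPM (long) and 4.95 (short) against 382 and 232 in other barcodes. The melanoma and stroma list had 11 of 13 genes at 0, and the mast cell and basophil list 6 of 6. The B cell list summed to 104 and 61.0 CPM, with Ighm as its most abundant gene (59.2 CPM), Cd79a at 0 by the rule and Ly6d and Fcmr also at 0. Over the labelled arms its sum ran from 18.0 to 268 CPM, and it exceeded that of the other barcodes in the long combination arm alone (135 against 105). In the NK cell list Ncr1, Klrb1c and Nkg7 were at 0, while Klrk1, the 1 measured gene of the list, was at 220.0 CPM with a log2 ratio of 1.05 over other barcodes. In the neutrophil list Cxcr2, Retnlg, Mmp9 and Ly6g were at 0, and the sum of 1145 and 899 CPM was nearly all Il1r2 (1112 and 864).

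Il1r2 and Ifitm1 were high in the pooled members of each arm, though not in every group of them described below. Il1r2, a decoy receptor that binds IL-1 without signaling, was at 818, 1016, 1146 and 1226 CPM in the long arms and 1839.7, 355, 762 and 992 in the short arms, against 268 in the pooled other barcodes. Ifitm1, an interferon-induced membrane protein, was at 9359, 1093, 2643 and 3039 CPM in the long arms and 3158, 1418, 3846 and 4690.0 in the short arms, against 633. Both genes were lowest or next to lowest in the anti-PD-1 arms, and the long isotype value of Ifitm1 came from 5 cells. Each was higher than in other kept barcodes in 8 of 8 arm samples. The interferon response list as a whole was not, with 2 of 15 measured genes higher in all 8 samples and a median log2 ratio of -0.06.

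Because members and other cells differed in depth, detection was compared after each cell was thinned to 2000 UMIs, which left out 4 long and 8 short members. A UMI of Il1r2 was then found in 62.8% of long members (exact 95% interval 51.1 to 73.5) and 45.9% of short members (35.0 to 57.0). Without thinning these shares were 72.0% and 54.8%. The share was 19.0% and 28.9% in the Xcr1 and Clec9a population, 25.2% and 37.9% in the C1q-high population, and 6.52% and 4.39% in barcodes with at least 3 Cd3 UMIs, T cells in which the gene is known mainly from the regulatory subset. That T cell gate was chosen after the data were seen, and its cells were shallower, with median depths of 5377 (long) and 4214.5 UMIs (short) against 9199 and 6565 in members. The intervals cover counting error only.

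H2-Oa was seldom found in the macrophage and monocyte gates. After thinning it was detected in 35.9% of long and 8.24% of short members, against 0.763% and 1.43% of C1q-high, 2.83% and 1.02% of Ly6c2 and 1.45% and 0.877% of Cd3 barcodes. The Xcr1 and Clec9a population had 28.6% and 17.8%, on the side of the members. Kmo, an enzyme of the kynurenine pathway, was found in 16.7% and 15.3% of members and in 11.9% and 6.67% of the Xcr1 and Clec9a population. Lyz2, the lysozyme of monocytes and macrophages, was found in 26.9% of long and 58.8% of short members, against 85.5% and 86.8% of C1q-high barcodes. Cd209a was found in 8.97% and 20.0% of members, in 0 of 524 long and 0 of 491 short C1q-high barcodes (exact upper limits 0.702% and 0.748%, for cells with a UMI at this depth and not for cells expressing the gene; without thinning 0.376% and 0%), and in 0.871% and 0.969% of Ly6c2 barcodes.

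**Figure D2:**
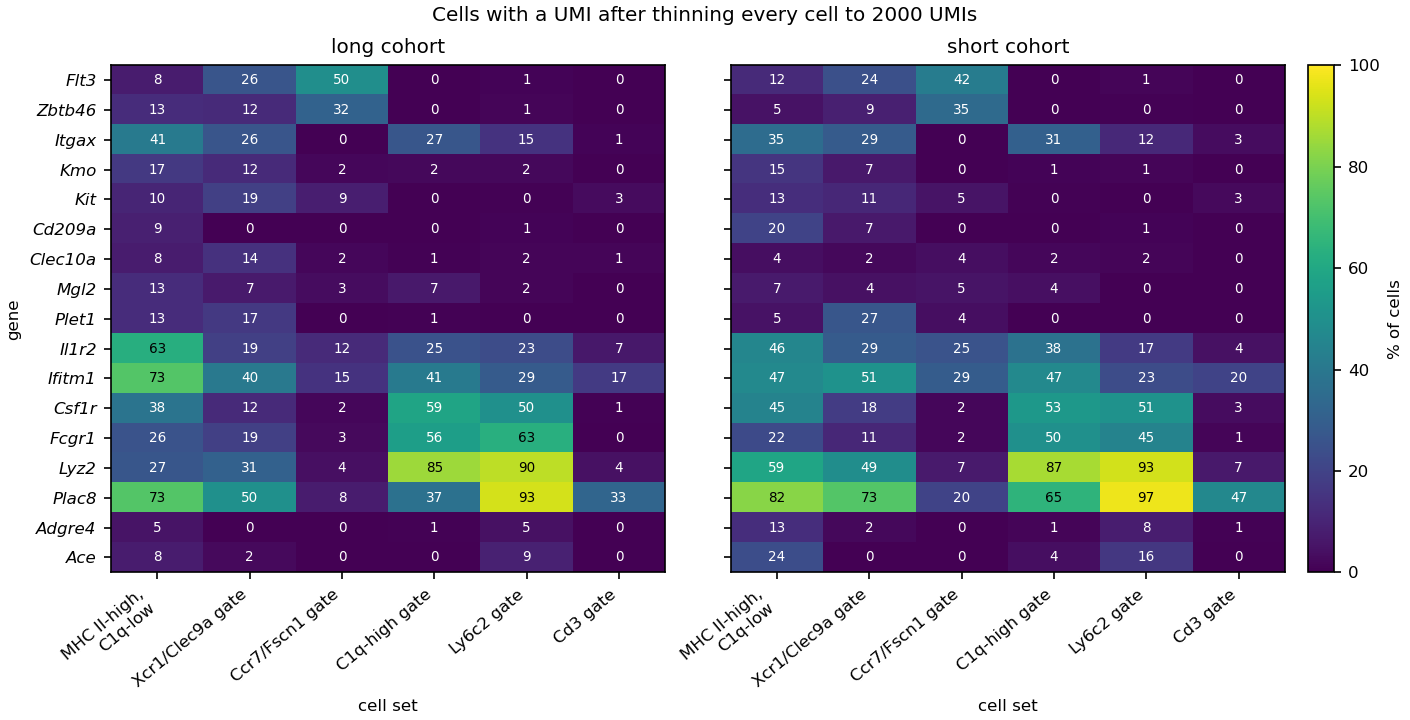
Percent of cells with at least 1 UMI of each gene after every cell was thinned to 2000 UMIs, by cell set (columns) and gene (rows), long cohort at left and short cohort at right. Members have Il1r2 in 62.8% and 45.9% of cells and Lyz2 in 26.9% and 58.8%.

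Outside the genes of the rule, the named genes were the 20 with the largest log2 ratio (with 1 CPM added to both levels) among 129 detected in at least 20% of members and higher in all 8 arm samples. Cd209a led with a log2 ratio of 3.90, followed by H2-Oa (3.11). Klri1, a lectin-like receptor of the NK receptor family, had 2.99 and H2-DMb2 2.84. Ctnnd2, a delta catenin, had 2.72, Kmo 2.71, H2-Ob 2.59 and Rtn1, a reticulon of the endoplasmic reticulum, 2.57. Then came Ifitm1 (2.20), Ciita (2.16), the adhesion molecule Nectin1 (2.10), Zbtb46 (2.02), Il1r2 (1.99), the peptidase Dpp4 (1.98), the fumarate hydratase Fh1 (1.97), the dendritic cell transcription factor Zfp366 (1.91), Rin3 (1.79), H2-Eb1 (1.76), the iron regulator Hfe (1.73) and H2-Ab1 (1.71). Class II genes and their regulator made up 6 of these 20. Nothing is read from this count, because the rule chose the members on Cd74, a gene of the same group.

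The 10 lowest, among 256 lower in all 8 samples and detected in at least 20% of other barcodes, were the following. Slpi, a protease inhibitor, was at 8.83 CPM in members against 203 (log2 ratio -4.37), the proteoglycan Vcan at 4.42 against 99.9 (-4.22) and the chitinase-like Chil3 at 18.6 against 315 (-4.02). The transcription factor Ets1 had -4.19, the adaptor Gab1 -3.73, Atxn1 -3.62, the chemokine Ccl5 -3.50, the monocyte chemokine Ccl2 -3.37, the lectin receptor Clec4d -3.28 and the coagulation factor subunit F13a1 -3.15. Among chemokine ligands 0 of 9 measured genes were higher and 3 lower in all 8 samples.

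Molecules through which a presenting cell speaks to T cells were mixed. Of the 8 measured costimulation and checkpoint ligands, 1 was higher and 1 lower in all 8 arm samples, with a median log2 ratio of 0.28. Cd86, a ligand of CD28, was the higher one, at 460.3, 556, 606 and 399 CPM in the long arms and 1212, 692, 332 and 613 in the short arms, beside 417 in the pooled other barcodes. Lgals9, which encodes galectin-9, was the lower one (154 against 229 CPM). Cd274, which encodes PD-L1, the ligand of PD-1, was at 588, 153, 147 and 369 CPM in the long arms and 35.2, 277, 86.0 and 198 in the short arms, beside 259, and was higher than in the other barcodes of the same arm in 2 of 8 samples. The isotype arms thus held both the highest and the lowest Cd274 value.

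Among 6 measured cytokines and decoys Il1r2 was higher in all 8 samples and 2 genes were lower. Il1b, which encodes the cytokine that Il1r2 binds, was at 869, 729, 2815 and 2641 CPM in the long arms and 3559.6, 3861, 1929 and 2435 in the short arms. The 2 anti-MIF arms of the long cohort were above its other arms, and the reverse held in the short cohort. The log2 fold change with anti-MIF was 0.39 ± 0.41 (SE), and the other kept barcodes showed the same ordering, at 864, 1138, 1909.8 and 1502 CPM in the long arms and 2391, 2535, 1256 and 1412 in the short arms. Il12a, Il12b and Il23a were at 0. Of 5 measured chemokine receptors 0 were higher and 1 lower in all 8 samples, with Ccr2 at 186 CPM as the most abundant. Of 10 measured pattern recognition and uptake receptors Cd209a was higher and 3 were lower in all 8 samples, among them the Fc receptor Fcgr3 (208 against 426 CPM).

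The members were not uniform. Clustering on 2000 variable genes gave 5 groups, which are described by their leading genes and given no cell type name, since the genes that define a cluster cannot test it. Resolutions of 0.4 and 1.0, chosen after the data were seen, gave 5 and 7 groups (adjusted Rand index with the described division 0.948 and 0.755). The first group (27 cells, 17 long and 10 short) was led by Srgap3, Rhoq, Nr4a3 and Mtss1 and had 2775 CPM of Il1r2 and 10173 of H2-Ab1. The fourth (44 cells, 30 long and 14 short) was led by the chemokine Cxcl9, Ifi205, Iigp1 and Fh1 and had 507 CPM of H2-DMb2 and 4688 of Ifitm1. These were the groups in which H2-DMb2 was found in most cells, 70.4% and 86.4%, and in which Lyz2 was lowest, at 156 and 62.1 CPM.

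The third group (39 cells, 12 long and 27 short) was led by Cd209a (615 CPM), the surface protein Cd7 (160.4), Ust and Flt3 (197). The second group (29 cells, 6 long and 23 short) was led by Ace (539 CPM) and Adgre4 (324), genes known from patrolling monocytes, and by Ear2 and Apoc2. It had no UMI of H2-DMb2, Kmo or Plet1, 3711 CPM of Lyz2, and the lowest H2-Aa of the 5 groups, 6882 CPM. Il1r2 (21.6 CPM, in 10.3% of cells) and Ifitm1 (173 CPM, in 20.7%) were lower there than in the other kept barcodes. The fifth group (36 cells, 17 long and 19 short) was led by Fn1 (1113 CPM), the scavenger receptor Msr1 and Itgb5, with 2785 CPM of Lyz2 and no UMI of Flt3. The leading genes of these last 2 groups, 29 and 36 of the 175 cells, thus included monocyte and macrophage markers, and for that reason the set is called by its rule here. Zbtb46 was at 3.77 CPM in the fifth group, under the 13.4 of other kept barcodes, and at 28.8 in the second (6.90% of cells), against 68.8 to 78.8 in the others. Members carrying Ace or Adgre4 were also kept apart in the shares below.

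The arms drew their members from these groups in unequal numbers. The short anti-PD-1 arm, with 30 members, had 0 in the first group, 7 in the second, 15 in the third, 1 in the fourth and 7 in the fifth. The short isotype arm, with 18 members, had 5, 2, 6, 5 and 0, and the long anti-MIF arm, with 45, had 10, 3, 4, 18 and 10. Il1r2 (2775 and 1156 CPM) and Ifitm1 (4344 and 4688) were highest in groups 1 and 4, of which the short anti-PD-1 arm held the single cell named above, and Flt3 was highest in the third (197 CPM, against 0 to 64.2 in the others), to which 15 of its members belonged. H2-Oa was at 335, 7.19, 110.3, 315 and 26.4 CPM in groups 1 to 5, and groups 1 and 4 held 17 and 30 of the 82 long but 10 and 14 of the 93 short members. The part of these proportions in the levels by arm and by cohort was not tested.

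**Figure D3:**
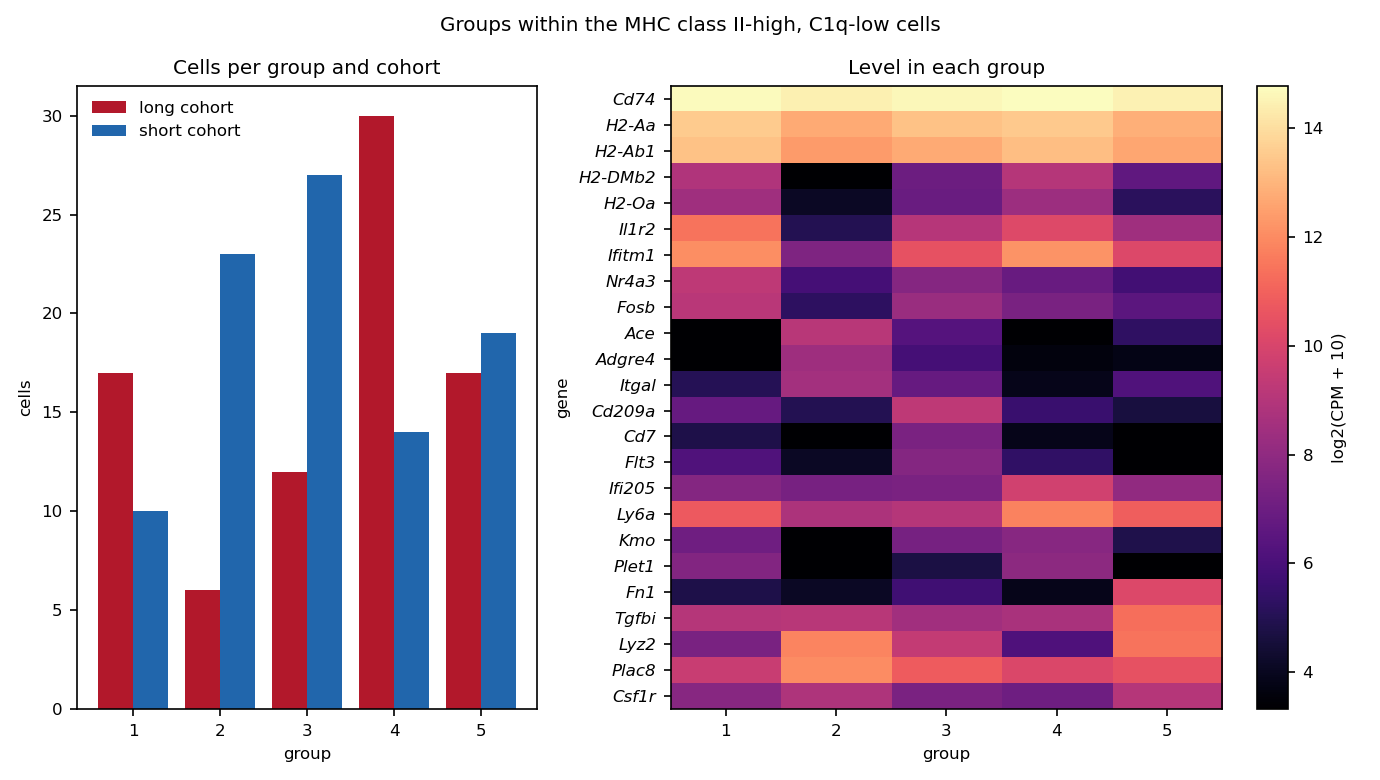
Left, number of members in each of the 5 groups by cohort; right, level of each gene in each group as log2(CPM + 10). Group 2 is dark for H2-DMb2 and bright for Ace, group 3 is bright for Cd209a, and group 5 for Fn1.

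The share of members among kept barcodes was compared between arms, in which neither treatment nor cohort had been used to choose the cells. In the long cohort it was 3.14% with isotype (5 of 159, exact 95% interval 1.03 to 7.19), 2.33% with anti-PD-1 (9 of 386, 1.07 to 4.38), 5.03% with anti-MIF (45 of 895, 3.69 to 6.67) and 5.90% with the combination (17 of 288, 3.48 to 9.28). In the short cohort it was 2.42% with isotype (18 of 744, 1.44 to 3.80), 1.75% with anti-PD-1 (30 of 1714, 1.18 to 2.49), 2.12% with anti-MIF (12 of 567, 1.10 to 3.67) and 1.89% with the combination (9 of 476, 0.868 to 3.56). The fifth hashtag had 1.85% (6 of 325) and 2.24% (24 of 1071). Both long arms with anti-MIF were above both long arms without it, with overlapping intervals, and the short arms lay within 1 percentage point of each other.

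Arms with anti-MIF exceeded their matched arms without it by 1.32 ± 1.77 percentage points (SD, n = 4 pairs), in 3 of 4 pairs (p = 0.375 in an exact permutation of the signs of the pairs, two-sided, 0.562 adjusted over the 3 comparisons). The 2 long pairs gave 1.88 and 3.57 points and the 2 short pairs -0.30 and 0.14, so the difference was not larger than its spread. For anti-PD-1 the difference was -0.21 ± 0.76 points (SD, n = 4 pairs), positive in 1 of 4 pairs (exact permutation p = 0.625, adjusted 0.625). It turned to 0.65 points, positive in 2 of 4 pairs, when the rule was applied to cells thinned to 2000 UMIs (exact permutation p = 0.875). The long exceeded the short cohort by 2.06 ± 1.68 points (SD, n = 4 pairs) in 4 of 4 arms (exact permutation p = 0.13, adjusted 0.375). When the leading hashtag had to be 10 times the next, the cohort difference was 0.21 points, positive in 3 of 4 arms (exact permutation p = 0.75). An unadjusted p of 0.13 is the smallest that 4 pairs allow, so no comparison of shares could pass 0.05. Without members carrying Ace or Adgre4 the shares were 2.52%, 2.07%, 4.13% and 5.56% in the long arms and 2.02%, 1.23%, 1.41% and 1.68% in the short arms, again higher in the long cohort in 4 of 4 arms.

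The anti-MIF difference of members was set against that of the other populations with the same pairs. It exceeded that of the Xcr1 and Clec9a population by 2.06 ± 2.69 points (SD, n = 4 pairs; exact permutation p = 0.375). Set against the C1q-high population, the mean of members minus population was -7.28 ± 14.6 points (SD, n = 4 pairs; exact permutation p = 0.5), positive in 2 of 4 pairs. The differences with 1 sign in 4 of 4 pairs numbered 3, each with the smallest p that 4 pairs allow (exact permutation p = 0.13). For anti-PD-1 the members minus the Ly6c2 population gave -7.34 ± 2.51 points and the members minus the Xcr1 and Clec9a population -1.50 ± 0.65 (SD). For the long minus the short cohort the members minus the Ly6c2 population gave 20.7 ± 5.04 points (SD). The share of the Ly6c2 population itself differed by 7.13 ± 2.65 points with anti-PD-1 and by -18.6 ± 3.90 points between cohorts (SD). That of the Xcr1 and Clec9a population differed by 1.29 ± 1.12 points with anti-PD-1 (SD). These 3 differences thus held mostly the change of the other population. Over the 12 differences of this kind the smallest adjusted p was 0.429.

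**Figure D4:**
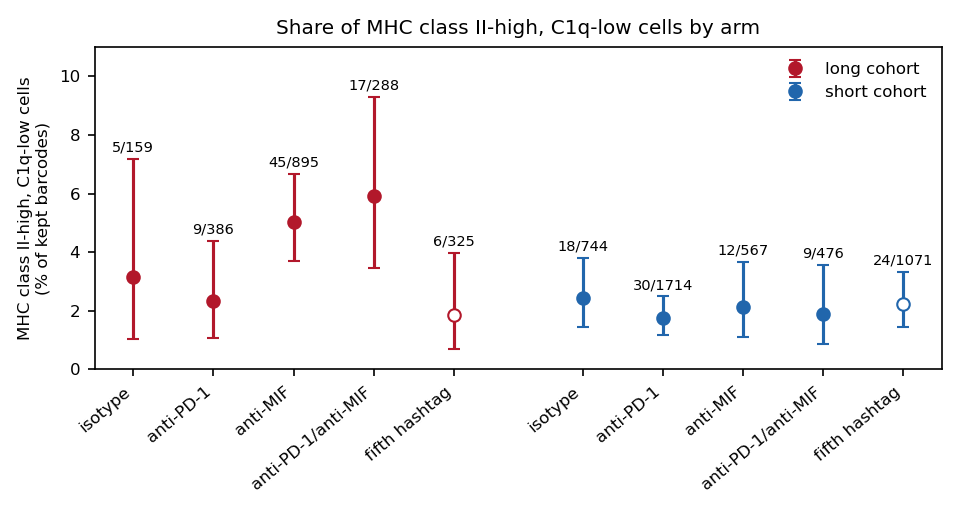
Percent of kept barcodes that were members in each arm, with exact 95% intervals and, above each, members over kept barcodes; open symbols are the fifth hashtag. The long anti-MIF and combination arms, at 5.03% and 5.90%, stand highest, with intervals that overlap those of the other long arms.

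Gene levels within the members were compared between arms with edgeR on UMIs summed per arm sample, with cohort, anti-PD-1 and anti-MIF as additive terms. The 8 samples held 5 to 45 cells and 39107 to 448649 UMIs, so that 1 UMI was worth 25.6 CPM in the long isotype sample and 2.23 CPM in the long anti-MIF sample. A total of 2240 genes passed the filter on low counts. The p-values measure the spread between these arm samples, each of which pools an unknown number of mice.

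With anti-MIF, 0 genes passed an adjusted p of 0.05 in edgeR (0% of those tested), 95 had an unadjusted p under 0.05, and DESeq2 also called 0. The classical class II chains lay near no change, with log2 fold changes of -0.16 ± 0.15 for H2-Aa, -0.01 ± 0.15 for H2-Ab1 and -0.13 ± 0.15 for H2-Eb1 (± SE, n = 4 arm samples against 4). Each of these changes lay within 2 SE of 0. Cd74 had -0.00 ± 0.13, from which nothing is read because the rule set the same Cd74 minimum for members of every arm. The classical chains belong to the gene group that Ciita switches on together with Cd74. That minimum can thus hold them level too, and their small changes are not read as an absence of effect. H2-DMb2 (0.88 ± 0.47) and H2-Oa (0.19 ± 0.38) were known less closely. The smallest adjusted p (0.530 by edgeR) was that of Gphn, which makes the scaffold protein gephyrin, at a log2 fold change of -1.04 ± 0.21 with 4 of 4 pairs lower. Mdh2, the mitochondrial malate dehydrogenase, was at 205, 134, 490.4 and 466 CPM in the long arms and 395, 210.5, 786 and 379 in the short arms (1.16 ± 0.28, 4 of 4 pairs higher, edgeR adjusted p = 0.641). It was also higher in 4 of 4 pairs of the other kept barcodes, with a mean log2 difference of 0.21 ± 0.17 (SD), and of the Ly6c2 population (0.36 ± 0.23). Members had 1.22 ± 0.42 on this scale. The Xcr1 and Clec9a population had -0.59 ± 0.77, higher in 1 of 4 pairs. Whether members and other cells differed in Mdh2 was not tested.

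With anti-PD-1, 0 genes passed in edgeR (0%), 68 had an unadjusted p under 0.05, and DESeq2 called 0. The classical chains had log2 fold changes of -0.22 ± 0.15 for H2-Aa, -0.19 ± 0.15 for H2-Ab1 and -0.21 ± 0.15 for H2-Eb1 (± SE). Cd74 had -0.08 ± 0.13, from which again nothing is read because the rule chose the cells on it. The same limit applies to the classical chains, which share the regulator Ciita with Cd74. Among the loading genes H2-DMb2 had -0.57 ± 0.46, H2-Oa -0.37 ± 0.38, H2-DMa -0.37 ± 0.23 and H2-DMb1 -0.31 ± 0.21, while Ciita had 0.33 ± 0.26. Over the 12 tested genes of the list, which include Cd74, the median was -0.22, with 2 lower and 1 higher in 4 of 4 pairs and 0 called. Over all 2240 genes tested the median was -0.001, with 159 lower and 140 higher in 4 of 4 pairs. The smallest adjusted p (0.658 by edgeR) belonged to the chaperones Hsph1 (2.42 ± 0.52) and Hsp90aa1 (1.19 ± 0.27), higher in 4 of 4 pairs each. Hsph1 was also higher in 4 of 4 pairs of the other kept barcodes, with a mean log2 difference of 1.22 ± 1.34 (SD), and so was Hsp90aa1 (0.53 ± 0.44). Hsp90aa1 had 1.19 ± 0.53 in the Ccr7 and Fscn1 and 1.17 ± 0.95 in the Xcr1 and Clec9a population, higher in 4 of 4 pairs each. Members had 1.40 ± 0.72 on this scale. The C1q-high and Ly6c2 populations had 0.36 ± 0.51 and 0.39 ± 0.57, higher in 3 of 4 pairs each. Whether the members differed from the other cells in this was not tested. Of the 14 stress and dissociation genes, 0 were called.

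Of the 7 MIF ligands and receptors, 5 were tested and 0 were called in any of the comparisons. Cd74 was among the 5, and nothing is read from its test because the rule chose the cells on it. Mif was at 793, 211, 704 and 429 CPM in long and 416, 554, 762 and 595 in short members, and its log2 fold change with anti-MIF was 0.32 ± 0.31. The homolog Ddt was at 83.0 CPM in the pooled members, the co-receptor Cd44 at 376 and the receptor Cxcr4 at 133. Cxcr2 and Ackr3 were at 0. Cd74 was the only one of the list whose level was higher than in other kept barcodes in all 8 samples, by the rule that chose the cells.

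Between the long and the short cohort, 5 of the 2240 genes (0.223%) differed by edgeR, 2 higher (0.0893%) and 3 lower (0.134%) in long members, and each in 4 of 4 arms. DESeq2 called 16, and 222 genes had an unadjusted edgeR p under 0.05. When the leading hashtag had to be 10 times the next, 0 were called, with 6 arm samples in the fit. The 5 genes then had edgeR adjusted p-values from 0.244 to 0.493 and log2 fold changes of -3.26 (Cd209a), -1.51 (Srgn), -1.59 (Crip1), 1.5 (Gphn) and 0.96 (Cdk8). Cd209a (ENSMUSG00000031494) was at 51.1, 19.2, 46.8 and 52.7 CPM in the long arms and 226, 471, 467 and 307 in the short arms. All short values exceeded all long ones, a log2 fold change of -3.01 ± 0.39 (SE), or 8.04-fold lower in the long cohort (edgeR adjusted p = 0.00360). Without the short anti-MIF sample its edgeR adjusted p was 0.0663. The fifth hashtag had 115 CPM in long and 136 in short members, a smaller gap than in any labelled arm.

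Members held 230 UMIs of Cd209a in 37 cells, and the many more barcodes outside the set held 484 in 98 cells. In those other barcodes the gene was at 1.19 to 21.6 CPM over the arms, and its mean log2 cohort difference there was -1.10 ± 1.32 (SD, n = 4 arms, lower in 3 of 4). The Cd209a-led group of members held 12 of 82 long and 27 of 93 short cells. Whether the arms differ in the level per cell or in the number of such cells within the set was not tested. Srgn, the core protein of granule proteoglycan, was at 844, 920.3, 1210.3 and 873 CPM in the long arms and 2784, 2642, 1671 and 2814 in the short arms, without overlap (-1.27 ± 0.22, edgeR adjusted p = 0.0250).

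Crip1, a small LIM protein, was at 2199, 1457, 2028 and 1098 CPM in the long arms and 4018, 3479, 4300.2 and 2561 in the short arms, without overlap (-1.04 ± 0.16, edgeR adjusted p = 0.0138). Gphn was at 2276, 2454, 865 and 1414 CPM in the long arms and 733, 720.1, 295 and 487 in the short arms, again without overlap (1.70 ± 0.21, edgeR adjusted p = 0.00360). Cdk8, a kinase of the Mediator complex, was at 14626, 21971, 15879 and 18545 CPM in the long arms and 8691, 11920.5, 4349 and 5412 in the short arms (1.39 ± 0.19, edgeR adjusted p = 0.00500). In every long arm it was above H2-Aa, a level whose source was not tested. Camk1d, Lars2 and Cmss1, which were not called, were also higher in long members in 4 of 4 arms, as were 176 of the 2240 genes tested. Their mean log2 differences were 0.87 ± 0.42, 0.88 ± 0.48 and 0.53 ± 0.24 (SD, n = 4 arms). In other kept barcodes these were 0.50 ± 0.35, -0.15 ± 0.18 and 0.11 ± 0.27. Whether these genes share a source with Cdk8 and Gphn was not tested. Leaving out 1 arm sample at a time, Gphn was called in 8 of 8 fits, Cd209a in 7, Cdk8 in 6, and Crip1 and Srgn in 2 each.

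The 5 genes were also read in the other cells of the libraries, as values without a test. In the other kept barcodes the mean log2 cohort difference was 0.38 ± 0.29 for Gphn, 0.61 ± 0.35 for Cdk8, -0.21 ± 0.22 for Crip1 and -0.81 ± 0.24 for Srgn (SD, n = 4 arms). The Cdk8 difference was positive in 4 of 4 arms of the C1q-high (0.54 ± 0.12), Ly6c2 (0.61 ± 0.40) and Ccr7 and Fscn1 populations (1.12 ± 0.15), the last near the 1.32 ± 0.58 of members on this scale, and in 3 of 4 arms of the Xcr1 and Clec9a population (0.92 ± 0.87). The Gphn difference was 0.46 ± 0.29 in the C1q-high and 0.27 ± 0.38 in the Ly6c2 population, but 0.05 ± 0.96 in the Xcr1 and Clec9a and -0.51 ± 0.55 in the Ccr7 and Fscn1 population. Srgn was lower in 4 of 4 arms of the C1q-high (-0.62 ± 0.22) and Ly6c2 populations (-0.36 ± 0.29) and had 0.04 ± 0.81 and 0.01 ± 0.25 in the Xcr1 and Clec9a and the Ccr7 and Fscn1 populations. Crip1 was lower in 4 of 4 arms of each of these populations except Ly6c2 (3 of 4), with means from -0.83 to -0.15. In the fifth hashtag, Cdk8 was at 5749.8 CPM in long and 6515 in short members and Gphn at 379 and 905, so neither was higher in its long members. The difference between members and other cells was not tested. Of the class II list, 12 genes were tested between cohorts and 0 called, Cd74 included, which the rule read. H2-Oa, which differed widely between the groups of members, had the smallest p of those named here, with a log2 fold change of 1.48 ± 0.39 and 4 of 4 arms higher in the long cohort (edgeR adjusted p = 0.231), and H2-DMb2 had 1.19 ± 0.47 (edgeR adjusted p = 0.390).

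**Figure D5:**
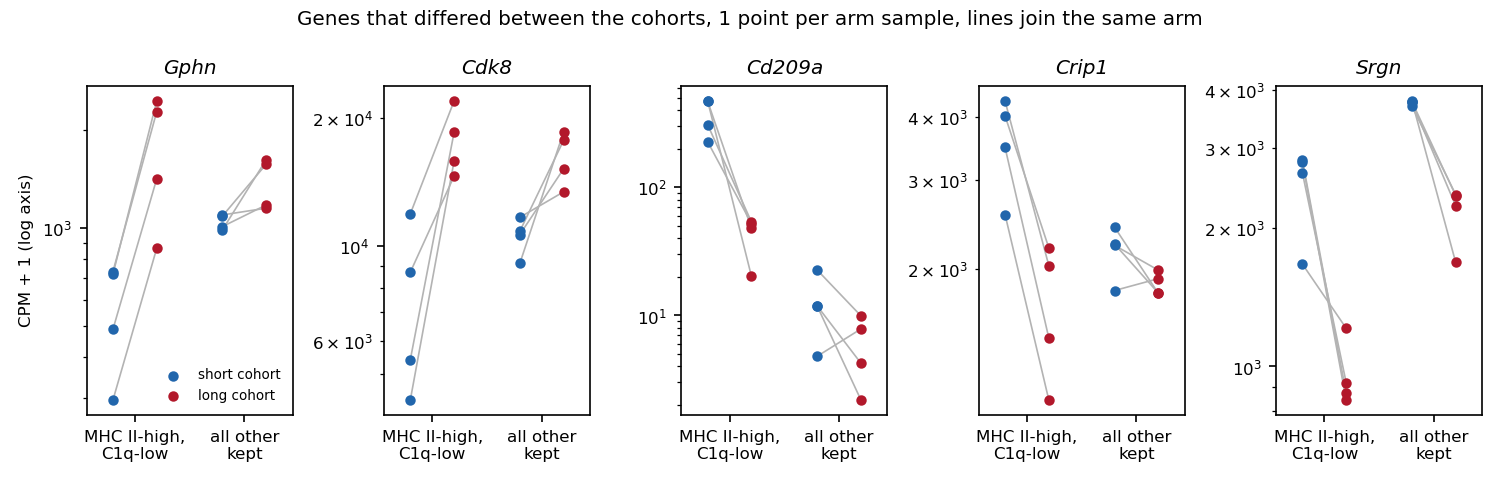
Level of the 5 genes that differed between the cohorts in CPM + 1 on log axes that do not start at 0, in members and in all other kept barcodes, 1 point per labelled arm sample, with lines joining the same arm. In members the short and long points do not overlap for any of the 5 genes, and every line runs in 1 direction.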

How the data were processed

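The data were 2 pooled 10x Chromium 5′ single-cell RNA-Seq libraries with their hashtag libraries, analysed as the UMI counts that the authors deposited, not normalized, per gene and barcode. According to the submitters' processing notes, Cell Ranger 7.1.0 and the mm10 genome were used, and Seurat 5.1.0 in R 4.3.2 and DESeq2 further downstream. The study's methods remove hashtag doublets and keep fewer barcodes than the 6625 kept here. Demultiplexing was rebuilt here from the hashtag counts, with the leading tag at least 3 times the next. Mixtures of 2 arms with unequal tag counts can pass that ratio, and their number was not estimated. No doublet caller was run, doublets within an arm were not removed, and free RNA was not subtracted. Members, comparison populations and gene lists were chosen with earlier results of these data known.

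Members' UMIs were summed per arm sample with at least 5 members, filtered with filterByExpr, scaled by TMM and tested by edgeR 4.0.16 (quasi-likelihood, Benjamini-Hochberg adjustment over all genes tested, threshold 0.05). DESeq2 1.42.0 served as an alternative. Shares were given exact Clopper-Pearson 95% intervals, and their differences were tested over 4 matched pairs by exact sign-flip permutation. Levels are CPM of summed UMIs, and log2 ratios add 1 CPM. Thinning drew 2000 UMIs from each cell. Groups within the members came from 15 principal components of 2000 variable genes (scanpy 1.11.5, Leiden resolution 0.6).

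Genes of 28 lists could be named, besides the 20 highest and 10 lowest by log2 ratio with the same direction in 8 arm samples, and up to 10 genes for each test, called and alike in 4 pairs. Camk1d, Lars2 and Cmss1 were named outside these rules, after the data were seen. Clec7a of the lists was not among the measured features. The edgeR step was tested on simulated data. Alternatives changed the hashtag ratio, the mitochondrial and gene limits, the Cd74 and C1q conditions, thinning, scaling, the filter on low counts and the tool, and left out each arm sample in turn.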

Additional observations from a re-analysis of the deposited data

Results flagged for a closer look

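In each cohort gene levels of the members, their share and their median UMIs were examined for an arm sample far from the other 3. This made 40 groups of 4, and 3 of them, all gene levels, held one. Chance alone marks about 1 in 20 such groups. Ciita stood out in the long cohort, where the combination arm had 353.6 CPM and the other 3 arms 230.1 to 249. Zbtb46 stood out in the short cohort, where the combination arm had 90.2 CPM and the others 49.1 to 55.4. That sample held 9 members, and 1 UMI was worth 18.0 CPM in it. Srgn also stood out among the short arms, with 1671 CPM in the anti-MIF arm against 2642 to 2814 in the others. This low value lay on the side of the long arms, so the cohort difference of Srgn was smallest in the anti-MIF arm.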

How the results depend on the processing

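The share of members in the long cohort (3.99%) became 2.17% when the leading hashtag had to be 10 times the next, 2.05% at a Cd74 minimum of 250 per 10000 and 7.97% when the rule was applied after thinning. In the short cohort (2.03%) it became 2.67% at a Cd74 minimum of 100, 0.656% at 250 and 4.35% after thinning. The anti-PD-1 difference in shares turned positive after thinning, at 0.65 points (exact permutation p = 0.875). Leaving out 1 pair, it ranged from -0.57 to -0.01, the anti-MIF difference from 0.57 to 1.86 and the cohort difference from 1.41 to 2.55 points; at a hashtag ratio of 10 the cohort difference was 0.21 points. Genes called with anti-MIF (0) were 2 after thinning and 2 with no filter on low counts; those called with anti-PD-1 (0) were 2 at a hashtag ratio of 10 and 6 with no filter. Genes called between cohorts (5) were 0 at a hashtag ratio of 10, 35 after thinning, 16 by DESeq2 and 8 with no filter. Leaving out 1 arm sample, the counts ranged over 0 to 1, 0 to 2 and 2 to 6. The fit at a hashtag ratio of 10 used 6 arm samples. Over 18 settings Gphn was called in 17 (log2 fold change 1.24 to 1.84), Cd209a in 16 (-3.34 to -2.65), Cdk8 in 15 (0.96 to 1.55), Srgn in 11 (-1.54 to -0.92) and Crip1 in 8 (-1.59 to -0.35). The cause of these shifts was not tested. Gene fits at a Cd74 minimum of 250 (4 arm samples with 5 members), or with at least 20 members in each sample (2 arm samples), could not be fitted. No analysis paired by replicate number was possible because each arm of a cohort is 1 sample and the labels number whole libraries only. Shares were instead compared over pairs of arms matched by cohort and treatment, and the gene fits held cohort as a term. Depth limits the smallest samples most, with 5 members and 39107 UMIs in the long isotype arm.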

Other observations

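Gene groups outside the class II pathway are given here as values without a test, since the rule chose the members on Cd74 and against genes of other cell types. Of 14 measured MHC class I presentation genes, 1 was higher and 1 lower than in other kept barcodes in all 8 arm samples, with a median log2 ratio of 0.19. Erap1, the aminopeptidase that trims class I peptides, was the higher one (51.2 against 37.5 CPM) and B2m, the light chain of class I, the lower one (2716 against 3486 CPM). Without Vegfa, which the rule read, the glycolysis and hypoxia list had 4 of 12 measured genes lower in all 8 samples and 0 higher (median log2 ratio -0.49), namely Gapdh (1449 against 2032 CPM), Aldoa (745 against 1093), Pkm (685 against 1002) and Pgk1 (257 against 434). In the list of Vegfa and Thbs1 macrophages, those 2 genes left out, 1 of 7 was lower, Hilpda, and 0 higher (-0.84).

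Of the 14 stress and dissociation genes, 0 were higher and 0 lower in all 8 samples (median log2 ratio 0.11), and the list summed to 9687 CPM in long and 8325 in short members against 8871 and 8033 in other barcodes. The cell cycle list had 3 measured genes with 0 in either direction (0.08), and summed to 809.8 and 617 CPM in members. Of 3 measured plasmacytoid dendritic cell genes 1 was lower in all 8 samples (-0.53), and Cox6a2, Ly6d and Klk1 were at 0, as was Siglech by the rule. The mature dendritic cell list had 8 measured genes with 1 higher and 1 lower (-0.25), and the cDC1 list 4 with 1 higher (0.84), led by Ifi205 at 377 CPM. Langerhans cell genes were not measured widely enough, with Cd207 at 0 and Epcam at 31.8 CPM in the pooled members, carried by 9 cells. Apart from Cd209a between cohorts, edgeR called no gene of any of the 28 lists in the anti-MIF, anti-PD-1 or cohort comparison.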
